A study of Arabidopsis thaliana with 4 samples.

Results

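The 10 genes described here encode factors and targets of light and shade signalling in Arabidopsis thaliana: the phytochrome-interacting factors PIF1, PIF3, PIF4 and PIF5, the light-promoting factor HY5, the shade response factors HFR1, PIL1 and ATHB2, and the early light-inducible proteins ELIP1 and ELIP2. They were found on the array by locus identifier, and the set was proposed with earlier results of these data known. All 10 were on the array, out of 25665 genes with an Arabidopsis locus identifier, and each was read by 1 probe. The overexpressing plants carried 35S:AtERF4-HA and the control plants carried 35S:NLS-GFP-HA, both in the Columbia-0 ecotype. The 35S promoter is active in most plant tissues, so neither transgene was confined to a cell type, while no source used here gives the number of transgenic lines. Whole untreated seedlings of 14 days were measured on 4 arrays, 1 biological replicate each, with both genotypes on every array. Per the labels, both genotypes of a replicate shared a plate with 0.5% sucrose at 23 degrees Celsius under a day of 16 h light and 8 h dark, and the dyes were swapped between arrays: the AtERF4-HA sample was in the green Cy3 channel of arrays 1 and 2 and in the red Cy5 channel of arrays 3 and 4.

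PIFs are basic helix-loop-helix (bHLH) transcription factors that promote elongation in darkness and shade. Most of them are broken down when red light activates the phytochromes. HY5, a bZIP factor, acts in the opposite direction: it promotes development in the light and is degraded in the dark through the COP1 ubiquitin ligase. In shade, PIFs switch on growth genes together with HFR1, which holds PIFs in dimers that do not bind DNA. ELIPs are chlorophyll-binding proteins of the thylakoid that accumulate under strong light. PIF4 and PIF5 are also known as promoters of leaf senescence in darkness, the process named in the title of the study.

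The direction of every ratio below is AtERF4-HA over control by the dyes in the labels. The authors' deposited value table runs the other way by the same dyes on all 4 arrays, while the sample titles name the AtERF4-HA plants first, and were the dyes entered the wrong way round, every sign given here would flip. The log2 ratio of ERF4 itself (AT3G15210) was above 0 on every array, at 0.98, 0.87, 0.82 and 1.04 (fitted 0.93 ± 0.07, adjusted p = 0.00288), and whether its probe reads the transgene is not known. The median spot had 122 to 140 units of green and 166 to 222 units of red signal, with local backgrounds of 58 to 60. Of 19456 genes tested, 2647 were higher and 2324 lower, at a Benjamini-Hochberg adjusted p under 0.05. Without array 1 these counts were 255 and 425, and without array 2 they were 225 and 429. Errors given as ± are standard errors of the limma fit over 4 arrays unless marked SD. A level is the normalized log2 signal of one channel, which is compared only between the genotypes for the same probe. In whole seedlings, fewer cells that express a gene and less RNA per cell cannot be told apart.

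All 10 genes passed the filter on dim probes. ELIP1, ELIP2 and PIF3 fell, PIF1, PIF4 and HFR1 rose, and PIF5, HY5, PIL1 and ATHB2 did not pass the test. The share of calls over all genes tested was 25.5%, made up of 13.6% higher and 11.9% lower. Levels did not overlap between the genotypes for 6 of the 10 genes, PIF1, PIF3, PIF4, HY5, ELIP1 and ELIP2, where 33.6% of all genes tested had no overlap. The median log2 ratio of the 10 genes was 0.02, against 0.01 over all genes tested. Without array 1 or without array 2 none of the 3 rises passed, and without array 2 ELIP2 was the 1 fall that passed.

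**Figure D1:**
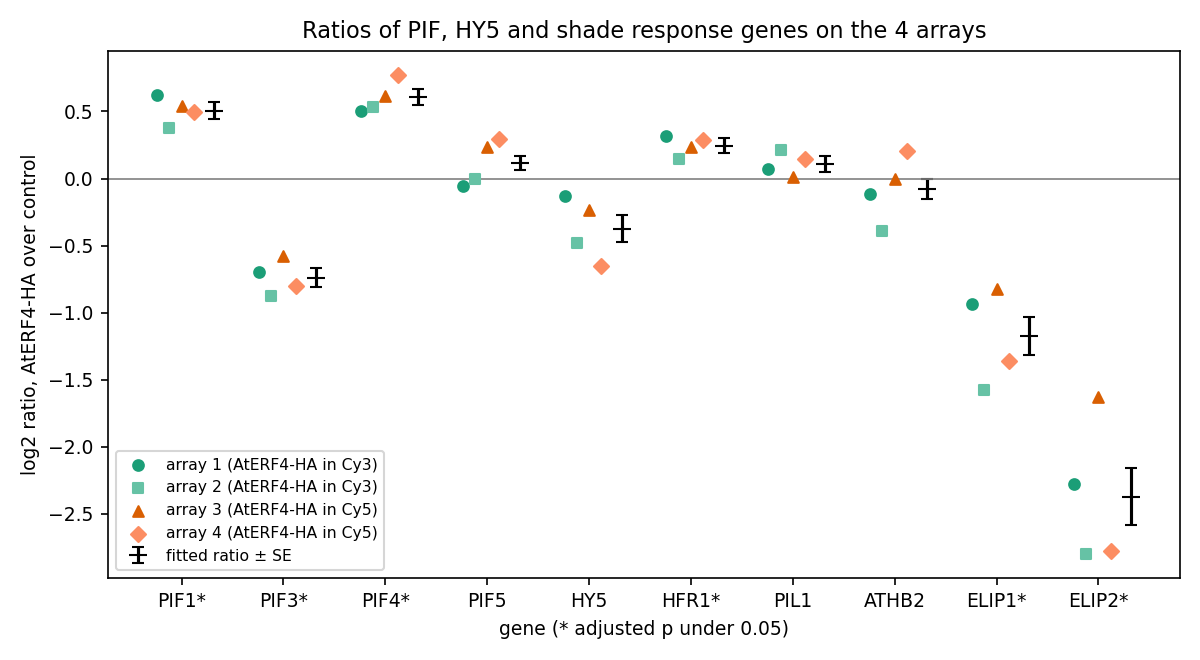
Log2 ratios of AtERF4-HA over control (y axis) for the 10 genes (x axis), with 1 symbol per array and the fitted ratio ± SE as a black bar. ELIP2, at -2.80 to -1.63, and ELIP1, at -1.57 to -0.83, lay furthest below 0. PIF1, PIF4, HFR1 and PIL1 were above 0 on all 4 arrays.

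Among the 10 genes, ELIP2 and ELIP1 had the lowest ratios. ELIP2 (AT4G14690), a photoprotective relative of the light-harvesting proteins, had levels of 10.41, 10.26, 10.03 and 10.05 in AtERF4-HA seedlings on arrays 1 to 4, against 12.69, 13.06, 11.65 and 12.83 in control seedlings. The genotypes did not overlap, and the lowest control level was that of array 3. In AtERF4-HA seedlings the levels spread little (SD 0.18), and in control seedlings they spread more (SD 0.62). The log2 ratios were -2.28, -2.80, -1.63 and -2.78, and the fitted ratio was -2.37 ± 0.21 (5.17-fold lower, adjusted p = 0.00426). This placed ELIP2 as the 74th lowest ratio among the 19456 genes. It passed with each array left out, at adjusted p = 0.0488 or less.

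ELIP1 (AT3G22840), the paralogue of ELIP2, had levels of 12.22, 11.94, 12.02 and 11.92 in AtERF4-HA seedlings and 13.15, 13.52, 12.85 and 13.28 in control seedlings. Again the genotypes did not overlap. The log2 ratios were -0.93, -1.57, -0.83 and -1.36 (fitted -1.17 ± 0.14, 2.26-fold lower, adjusted p = 0.00867). ELIP1 did not pass without array 2 (adjusted p = 0.0602), although its ratio was still -1.01. For both ELIP genes the ratios on arrays 2 and 4, which have opposite dye orientations, were further from 0 than those on arrays 1 and 3. Reading of one paralogue's transcript by the other's probe was not tested.

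Among the PIF genes, PIF4 and PIF1 rose, PIF3 fell and PIF5 did not pass. PIF4 (AT2G43010), a driver of elongation in warmth and shade, had levels of 14.67, 14.84, 14.76 and 14.78 in AtERF4-HA seedlings and 14.16, 14.31, 14.14 and 14.01 in control seedlings. Every AtERF4-HA level was above every control level. The fitted log2 ratio was 0.61 ± 0.06 (1.52-fold, adjusted p = 0.00479). PIF4 lost its call when array 1 was left out (adjusted p = 0.0597) and when array 2 was (0.0635).

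PIF1 (AT2G20180), a repressor of seed germination and of chlorophyll synthesis in the dark, is named PIL5 in RefSeq. Its levels were 11.41, 11.31, 11.32 and 11.42 in AtERF4-HA seedlings and 10.79, 10.94, 10.78 and 10.92 in control seedlings. The log2 ratio was 0.51 ± 0.07 (1.42-fold, adjusted p = 0.00964), with 0.62, 0.37, 0.54 and 0.49 on the 4 arrays and no overlap of levels. The mean ratio was 0.50 over the arrays with AtERF4-HA in Cy3 and 0.51 over those with it in Cy5. Leaving out array 1 (adjusted p = 0.0781) or array 2 (0.0615) ended the call of PIF1.

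PIF3 (AT1G09530), the first PIF found through its binding to phytochrome, went the other way. Its levels were 10.64, 10.64, 10.66 and 10.57 in AtERF4-HA seedlings and 11.34, 11.52, 11.23 and 11.37 in control seedlings. The log2 ratio was -0.74 ± 0.07 (1.67-fold lower, adjusted p = 0.00465), lower on all 4 arrays and without overlap. PIF3 did not pass without array 2 (adjusted p = 0.0576).

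PIF5 (AT3G59060), a close relative of PIF4 that RefSeq names PIL6, had levels of 12.82, 13.05, 13.06 and 12.99 in AtERF4-HA seedlings and 12.88, 13.06, 12.83 and 12.70 in control seedlings. The genotypes overlapped. The log2 ratios were -0.06 and -0.01 with AtERF4-HA in Cy3 and 0.24 and 0.30 with it in Cy5, so the sign followed the dye. The fitted ratio was 0.12 ± 0.05, with a 95% interval of -0.02 to 0.26 (adjusted p = 0.155). PIF5 passed with the authors' value table turned to the same direction, at 0.27 (adjusted p = 0.0175). That table is not centred, and the median of all genes in it was 0.16.

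**Figure D2:**
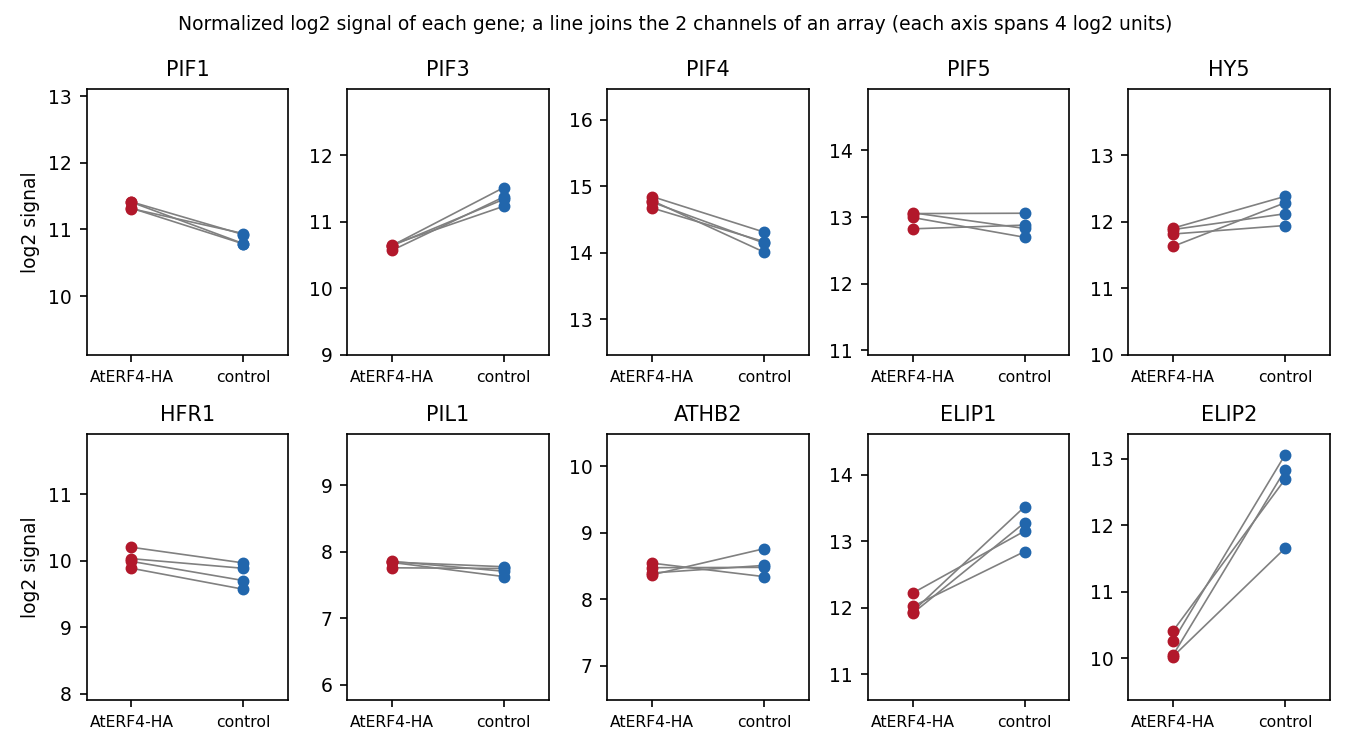
Normalized log2 signal (y axis) of each of the 10 genes in AtERF4-HA seedlings (left, red) and control seedlings (right, blue), with a line joining the channels of an array. All axes span the same number of log2 units, so slopes can be compared between genes: the lines of ELIP2 climb steeply towards the control side on all 4 arrays, while those of PIF5 and ATHB2 ran both ways.

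HY5 (AT5G11260) was lower on every array but did not pass. Its levels were 11.81, 11.90, 11.88 and 11.63 in AtERF4-HA seedlings and 11.94, 12.38, 12.12 and 12.28 in control seedlings. The genotypes did not overlap, although the lowest control level lay only just above the highest AtERF4-HA level. The log2 ratios were -0.13, -0.48, -0.24 and -0.65, again further from 0 on arrays 2 and 4. The fitted ratio was -0.37 ± 0.10, with a 95% interval of -0.64 to -0.11 (adjusted p = 0.0565). HY5 passed without array 3, at -0.48 (adjusted p = 0.0166), without background correction (0.0110), with background-subtracted signals (0.0277), with processed signals (0.0358) and without a dye term (0.0425). With median centring, where p-values followed the size of the ratio alone, it came to -0.23 (adjusted p = 0.286).

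HFR1 (AT1G02340), the bHLH inhibitor of PIFs, rose slightly. Its levels were 9.89, 10.03, 10.20 and 9.99 in AtERF4-HA seedlings and 9.57, 9.89, 9.97 and 9.70 in control seedlings. The levels overlapped between genotypes, but within each array AtERF4-HA was higher, with log2 ratios of 0.31, 0.15, 0.24 and 0.29. The fitted ratio was 0.25 ± 0.06 (1.19-fold, adjusted p = 0.0414). The call was lost when array 1 (adjusted p = 0.209), array 2 (0.157) or array 4 (0.0928) was left out, with offset 16 (0.0506) and with median centring (0.0611). The ratio of HFR1 was 0.38 from the processed signals and 0.49 in the authors' value table.

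PIL1 (AT2G46970), a PIF-like bHLH gene known for its fast induction by shade, was near background. Its raw median spot signals were 97.5, 96, 110 and 101 in AtERF4-HA seedlings and 102, 82, 89 and 86.5 in control seedlings. The probe was well above background on 4 arrays in the AtERF4-HA channel and on 2 in the control channel, so it passed the filter through the AtERF4-HA channel alone. The log2 ratios were 0.07, 0.21, 0.01 and 0.15 (fitted 0.11 ± 0.06, 95% interval -0.05 to 0.27, adjusted p = 0.223). The value turned on how background was handled: it was 0.24 without background correction (adjusted p = 0.0174), 0.95 with background-subtracted signals (0.00343), 1.03 from processed signals (0.00208) and 1.15 in the authors' value table (0.00165).

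ATHB2 (AT4G16780), a homeodomain leucine zipper (HD-Zip) factor of class II and a classical marker of shade, did not pass. Its levels were 8.40, 8.37, 8.48 and 8.54 in AtERF4-HA seedlings and 8.51, 8.76, 8.48 and 8.34 in control seedlings. The genotypes overlapped, and the ratios of -0.11, -0.39, -0.0047 and 0.20 had both signs. The fitted ratio was -0.08 ± 0.08, with a 95% interval of -0.27 to 0.12 (adjusted p = 0.474), and it was 0.065 with the authors' value table (0.485).

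Other genes of light signalling were taken from 10 lists with 93 genes, of which 89 were tested. Of these 18 rose, 10 fell and 61 did not pass, which is 31.5% called against 25.5% over all genes. With an array left out the rises numbered 4 without array 1 and 4 without array 2, and the falls 1, 1 and 20 without arrays 1, 2 and 3. Over all 19456 genes the rises in the same fits numbered 255 and 225, and the falls 425, 429 and 3877. The calls among upstream light sensors were rises. Of 10 photoreceptor genes 5 rose, none fell and 5 did not pass (median 0.22), where 13.6% of all genes tested rose. The blue light receptors PHOT1 (AT3G45780), CRY1 (AT4G08920) and PHOT2 (AT5G58140) were at 0.45 ± 0.06, 0.39 ± 0.05 and 0.29 ± 0.06, and the phytochrome PHYE (AT4G18130) at 0.26 ± 0.06. UVR8 (AT5G63860), the UV-B receptor, rose by 0.31 ± 0.05 and is outside the naming rule, having been chosen after its value was seen. Without array 1 or array 2 none of the 5 passed (adjusted p = 0.0777 to 0.219), nor did PHOT2 and PHYE without array 4 (0.0799 and 0.0848). PHOT2 also missed with the mean of its probes (0.16, adjusted p = 0.117) and PHYE without a dye term (0.0508). With median centring PHOT2 came to 0.47, PHYE to 0.40 and UVR8 to 0.48, and PHYE was at 0.41 in the value table.

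Repressors act below the photoreceptors. Of 9 genes of the COP1, SPA and DET1 complexes, which mark HY5 and HFR1 for degradation, SPA4 (AT1G53090) fell, at -0.26 ± 0.06 (adjusted p = 0.0406), and 8 did not pass (median -0.06), where 11.9% of all genes tested fell. The call of SPA4 was lost when array 1 (adjusted p = 0.149), array 2 (0.242) or array 4 (0.0989) was left out, with offset 16 (0.0527) or with median centring (-0.12, 0.637). Of the genes for phytochrome A import, FHL (AT5G02200) was at -0.52 ± 0.18 (adjusted p = 0.0913), its transcriptional activators FHY3 (AT3G22170) and FAR1 (AT4G15090) were at 0.07 ± 0.06 and 0.14 ± 0.05, and none passed. FHL passed without array 3 (adjusted p = 0.00971), without background correction (-0.72, 0.00126) and with background-subtracted signals (-1.64, 0.00117). It also passed from processed signals (-1.54, 0.00101) and in the value table (-1.43, 0.00118). FAR1 passed in that table alone (0.26, 0.0207). After median centring FHL stayed at -0.52 and passed (adjusted p = 0.00330), but p-values there followed the size of the ratio alone.

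Other bHLH factors include PIF7 and small proteins that bind other bHLH factors. Of 8 other PIF-like and inhibitory bHLH genes 5 rose, none fell and 3 did not pass (median 0.49). Over all genes tested 13.6% rose. The list had 2 rises without array 1 and 3 without array 2. PRE1 (AT5G39860), which promotes cell elongation, had levels of 10.94, 11.17, 11.11 and 11.51 in AtERF4-HA seedlings and 9.66, 9.66, 9.98 and 9.89 in control seedlings. It rose by 1.38 ± 0.10 on the log2 scale, and KDR (AT1G26945), of the same family, rose by 1.22 ± 0.10. PAR1 (AT2G42870), an inhibitor of shade growth, rose by 0.66 ± 0.13, its relative PAR2 (AT3G58850), also chosen after its value was seen, by 0.72 ± 0.06, and PIF7 (AT5G61270), a PIF of shade, by 0.32 ± 0.06. PRE1 and KDR passed with each array left out. The calls of PAR1 and PIF7 were lost when array 1 (adjusted p = 0.0710 and 0.144) or array 2 (0.135 and 0.112) was left out, and that of PAR2 when array 1 was (0.0503). PAR1 came to 1.04 with the authors' value table.

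Several of ATHB2's relatives in the HD-Zip II class rose. Of 7 other genes of the class 4 rose, none fell and 3 did not pass (median 0.43). Over all genes tested 13.6% rose. HAT3 (AT3G60390), a shade-induced factor of leaf polarity, had levels of 10.40, 10.48, 10.43 and 10.43 in AtERF4-HA seedlings and 9.33, 9.13, 9.77 and 9.38 in control seedlings. It rose by 1.04 ± 0.09, HAT9 (AT2G22800) by 1.02 ± 0.09, HAT2 (AT5G47370), which is induced by auxin, by 0.58 ± 0.06 and HAT1 (AT4G17460) by 0.40 ± 0.08. No difference between these genes and ATHB2 was tested. Without array 1, HAT2 and HAT1 did not pass (adjusted p = 0.0558 and 0.121), and without array 2 HAT3 was the 1 gene that passed (0.0499). HAT1 came to 0.69 with the authors' value table.

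Genes that act with HY5 and genes that act below it were kept in separate lists. HYH (AT3G17609), the closest homologue of HY5, had levels of 9.81, 9.51, 9.69 and 9.50 in AtERF4-HA seedlings and 10.61, 10.75, 10.02 and 10.71 in control seedlings. It fell, at -0.90 ± 0.17 (adjusted p = 0.0240), with ratios of -0.80, -1.24, -0.32 and -1.22. Among 12 tested HY5 partners and B-box zinc finger factors 2 rose, 2 fell and 8 did not pass (median -0.04). Over all genes tested 13.6% rose and 11.9% fell. BBX21 (AT1G75540), an activator of HY5, fell, at -0.24 ± 0.06, while BBX4 (AT2G24790) rose by 0.48 ± 0.06 and BBX31 (AT3G21890) by 0.41 ± 0.05. Without array 1 or array 2 none of the 4 passed (adjusted p = 0.0675 to 0.211). BBX21 also missed without array 4 (0.115), with offset 16 (0.0597), after median centring (-0.12, 0.622) and in the value table (0.0502).

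Of 11 HY5 and UV-B response genes none rose, 4 fell and 7 did not pass (median -0.36). Over all genes tested 11.9% fell. MYB75 (AT1G56650), an activator of anthocyanin synthesis, had levels of 9.94, 10.02, 10.23 and 9.89 in AtERF4-HA seedlings and 11.70, 11.64, 11.37 and 11.30 in control seedlings, and fell, at -1.48 ± 0.07. RUP1 (AT5G52250) and RUP2 (AT5G23730), which switch UVR8 off, fell, at -0.62 ± 0.13 and -0.50 ± 0.11, and the plastid sigma factor SIG5 (AT5G24120) at -0.50 ± 0.06. The flavonoid enzyme gene CHS (AT5G13930), chosen after its value was seen, was at -0.24 ± 0.11 and did not pass (adjusted p = 0.162). Of the 4 falls MYB75 alone passed without array 1 (adjusted p = 0.0293) or array 2 (0.0279), and without array 3 there were 8 falls, CHS among them (0.0267). Over all 19456 genes 3877 fell without array 3, against 2324 in the reported fit. RUP2 missed without array 4 (0.0672), with offset 16 (0.0506) and with median centring (0.0849), and SIG5 with median centring (0.0735). CHS came to -0.07 with median centring. Of the 7 other light-harvesting-like stress protein genes 1 rose, none fell and 6 did not pass (median 0.13), where 13.6% of all genes tested rose and 11.9% fell. The rise was that of SEP1 (AT4G34190), at 0.24 ± 0.06 (adjusted p = 0.0396), and it was lost without array 1 (0.205), array 2 (0.162) or array 4 (0.0883), with offset 16 (0.0566), with processed signals (0.15, 0.0938) and without a dye term (0.0950), and came to 0.44 with median centring.

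Of 12 tested growth genes induced by shade, 1 rose, 1 fell and 10 did not pass (median 0.04), where 13.6% of all genes tested rose and 11.9% fell. The auxin synthesis gene TAA1 (AT1G70560) rose by 0.52 ± 0.07 and XTR7 (AT4G14130), a cell wall xyloglucan endotransglucosylase, fell, at -0.65 ± 0.14. IAA29 (AT4G32280), an auxin repressor gene and direct PIF target chosen after its values were seen, had ratios of 0.70, 1.67, 0.21 and 1.67 and a fitted value of 1.06 ± 0.29 that did not pass (adjusted p = 0.0558). IAA29 passed without array 3 (0.00561), without background correction (1.61, 3.47e-05), with median centring (1.13), without a dye term (0.0350), and with background-subtracted signals (2.75, 0.000330), processed signals (2.87, 0.000279) and the value table (2.98, 0.000288). The calls of TAA1 and XTR7 were lost when array 1 (adjusted p = 0.0792 and 0.140) or array 2 (0.0967 and 0.0962) was left out. The list had 3 rises and 4 falls without array 3, and 2 falls without array 4. It had 5 rises and 3 falls from the processed signals and 6 rises and 3 falls with the value table, where TAA1 came to 0.80. Calls also grew in number over all 19456 genes. From the processed signals 5046 genes rose and 3923 fell, against 2647 and 2324 in the reported fit. Rises over all genes numbered 7894 with the value table, and falls 3063. These numbers were 3233 and 3877 without array 3.

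PIF4 and PIF5 are repressed in the evening by the clock's evening complex of ELF3, ELF4 and LUX. Of 10 clock genes none rose, 2 fell and 8 did not pass (median -0.04), where 11.9% of all genes tested fell. The falls were those of ELF3 (AT2G25930), at -0.39 ± 0.08 (adjusted p = 0.0341), and LUX (AT3G46640), at -0.39 ± 0.08 (0.0277). Both calls were lost when array 1 (adjusted p = 0.108 and 0.144) or array 2 (0.201 and 0.154) was left out and with median centring (-0.26, 0.211 and -0.28, 0.173), and that of ELF3 also without array 4 (0.0627). There were 5 falls without background correction or with background-subtracted signals, 4 with processed signals, and 3 rises beside the falls with the value table. Over all 19456 genes the falls in the first of these settings numbered 4919, 4486 and 3923, against 2324 in the reported fit. The value table gave 7894 rises over all genes, against 2647. No source used here gives the hour of harvest, so the place of these values in the day is unknown. A link of the ELF3 and LUX falls to the values of PIF4 and PIF5 was not tested.

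Calls among the organ markers were mostly in the shoot list, whose 5 genes all belong to photosynthesis. Of 5 shoot markers 4 rose (median 0.86), where 13.6% of all genes tested rose. The antenna genes LHCA1 (AT3G54890) and LHCB6 (AT1G15820) rose by 1.03 ± 0.06 and 0.86 ± 0.06. PSBQ2 (AT4G05180) of photosystem II rose by 1.03 ± 0.06 and the Rubisco gene RBCS2B (AT5G38420) by 0.59 ± 0.07. RBCS1A (AT1G67090) was at 0.21 ± 0.07 and did not pass (adjusted p = 0.0866). By array the shoot median ran from 0.42 on array 2 to 1.19 on array 4. Of 5 tested root markers 1 rose and 4 did not pass, against the same 13.6% over all genes. The rise was that of CASP1 (AT2G36100) of the endodermis, at 0.47 ± 0.08. The root median was 0.45, and by array it ran from 0.11 on array 3 to 0.78 on array 4. No organ marker of either list fell. The part of organ proportions in the light signalling values was not tested. RBCS2B missed without array 1 or array 2 (adjusted p = 0.0779 and 0.0755), CASP1 likewise (0.126 and 0.104), and there were 3 root rises without array 3. Over all 19456 genes 3233 rose without array 3, against 2647 in the reported fit. RBCS1A passed with median centring (0.44, adjusted p = 0.0184) and was at 0.02 with processed signals.

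Of 5 reference genes, ACT2 (AT3G18780) fell, at -0.34 ± 0.06, SAND (AT2G28390) rose by 0.20 ± 0.05, and UBQ10 (AT4G05320), TIP41L (AT4G34270) and PP2AA3 (AT1G13320) were at -0.20 ± 0.06, -0.13 ± 0.07 and 0.07 ± 0.06 and did not pass. The SAND and ACT2 calls were both lost without array 1 (adjusted p = 0.208 and 0.122), without array 2 (0.256 and 0.164) and with median centring (0.102 and 0.618), and that of SAND also without array 3 (0.0675) or array 4 (0.113), with background-subtracted signals (0.0653), with offset 16 (0.0585) and without a dye term (0.0522). UBQ10 passed without background correction (-0.23, adjusted p = 0.0381), from background-subtracted (-0.25, 0.0372) and processed signals (-0.34, 0.0172) and in the value table (-0.23, 0.0420), as did PP2AA3 in that table (0.20, 0.0361). Median centring put ACT2 at -0.12, UBQ10 at 0.025 and TIP41L at 0.024, and the value table put TIP41L at 0.015 and SAND at 0.34.

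**Figure D3:**
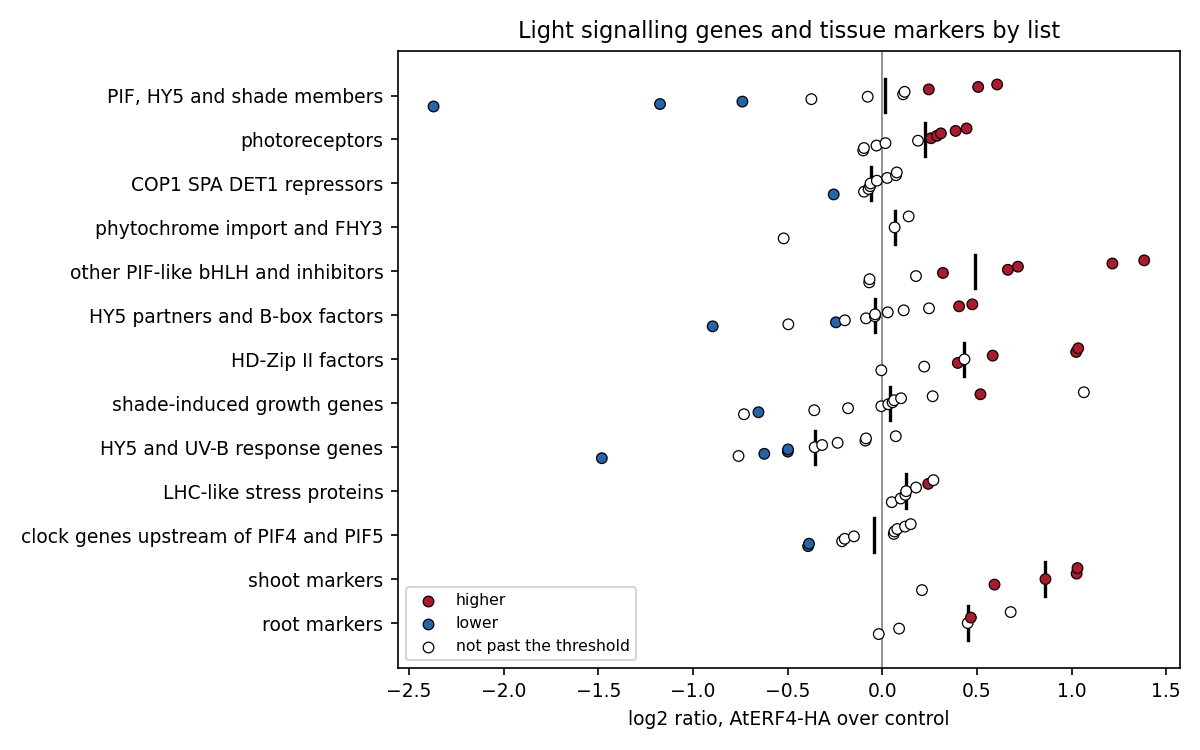
Fitted log2 ratios of AtERF4-HA over control (x axis) for every tested gene of each list (y axis), with red for higher, blue for lower and white for not past the threshold, and a black bar at each list's median. The list of other PIF-like bHLH and inhibitor genes and the HD-Zip II list lie mostly to the right of 0. Their medians are 0.49 and 0.43. The HY5 and UV-B response list lies mostly to the left, at -0.36.

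**Figure D4:**
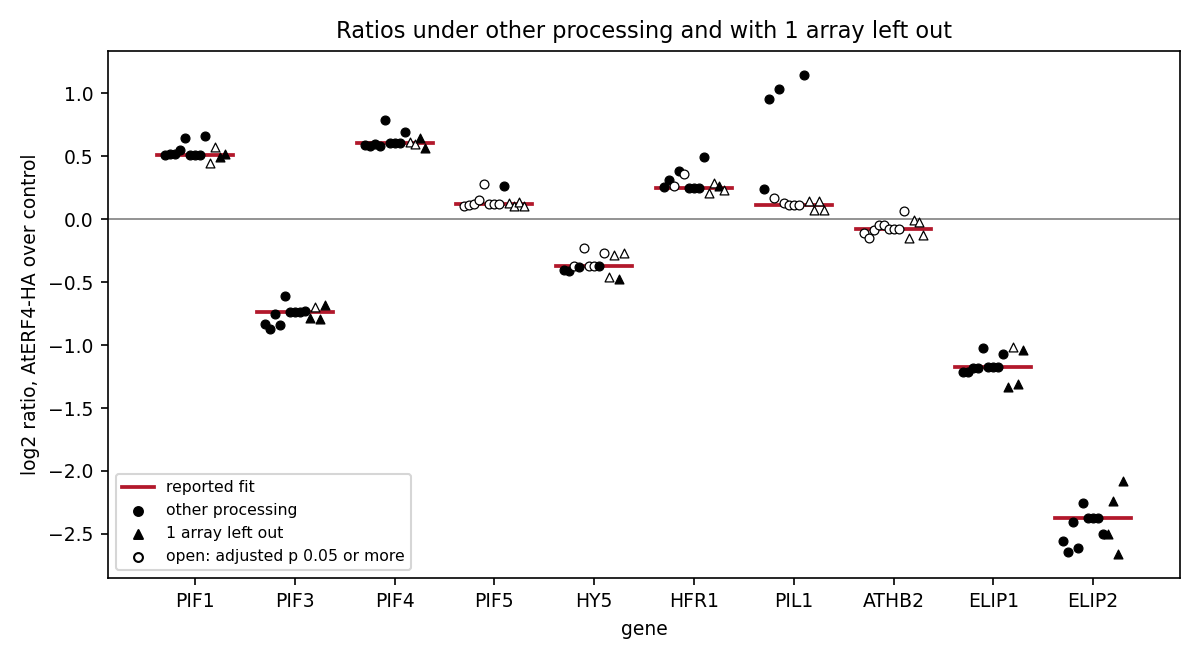
Log2 ratios of AtERF4-HA over control (y axis) for the 10 genes (x axis) in the reported fit (red line), under other processing (circles) and with 1 array left out (triangles), filled where the adjusted p is under 0.05. ELIP2 and ELIP1 stayed below -1 in every setting drawn, and PIL1 ran from 0.07 to 1.15.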

How the data were processed

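For 4 arrays of 2 colours the authors deposited scanner files with the intensity of each spot in Cy3 (green) and Cy5 (red). Per the submitters' processing notes, the software was Agilent Feature Extraction 9.1.3.1. The log10 ratio in the same files is red over green per the file headers. All 4 arrays lay on 1 slide and had 1 scan per the file headers, so neither could be tested as a batch. The authors' deposited value table holds natural log ratios, found by its slopes of 0.694, 0.697, -0.695 and -0.693 against log2 red over green. It is not centred (medians -0.22, -0.05, -0.14 and -0.08), and no source used here states how it was made.

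Median signals were corrected with normexp (offset 50) and normalized by loess within arrays, control spots at weight 0, in limma 3.58.1 (R 4.3.3). Flagged outlier spots were left out. Levels were taken after Aquantile scaling between arrays. The filter asked for a ratio on all 4 arrays and a signal well above background on all 4 for at least 1 genotype, and the brightest probe that passed was taken for each gene. Ratios were fitted with lmFit and eBayes to a genotype and a dye term (2 residual and 2.77 prior degrees of freedom), and p-values were adjusted over all 19456 genes. The number of arrays limits the precision. The alternatives were no background correction, background-subtracted signals floored at 1, offset 16, processed signals, median centring, no filter, the mean of a gene's probes, no dye term, the value table and leaving out each array.

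The 10 genes and the lists were chosen with earlier results of these data known. Named were all 10 genes, ERF4, of each list the 2 highest and 2 lowest called genes, every tested member of lists of 5 or fewer, and further genes marked as chosen after their values were seen. All 10 loci matched RefSeq (TAIR10.1). Coordinates are left out, since the array's build is not stated in the sources used. Probe sequences were not used here.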

Additional observations from a re-analysis of the deposited data

Results flagged for a closer look

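Of 55 named genes, 1 had an array far from the other 3. BBX4 was at 0.31 on array 2, against 0.51 to 0.55 on arrays 1, 3 and 4, a gap of 0.84 of its whole range. Chance gives such a value in about 5% of groups.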

How the results depend on the processing

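ELIP2 kept its direction and its call in every alternative run. PIF1, PIF3, PIF4 and ELIP1 kept theirs in all but fits with an array left out. With an array left out the log2 ratios ran from 0.44 to 0.57 for PIF1, -0.80 to -0.68 for PIF3, 0.57 to 0.65 for PIF4, -0.48 to -0.27 for HY5, 0.20 to 0.29 for HFR1 and -1.33 to -1.01 for ELIP1. HFR1 did not pass with offset 16 (0.26) or median centring (0.36). HY5 passed without background correction (-0.41), with background-subtracted signals (-0.42), with processed signals (-0.38) and without a dye term (-0.37). PIL1 passed at 0.24, 0.95, 1.03 and 1.15 without background correction, from background-subtracted signals, from processed signals and in the value table. In that table PIF5 passed at 0.27, ATHB2 turned to 0.065, TIP41L turned to 0.015 and 5 of the 10 genes rose. Of all 19456 genes 7894 rose in it, and the median of all genes was 0.16. Median centring turned UBQ10 to 0.025 and TIP41L to 0.024. With median centring the adjusted p-values of the named genes followed the size of the ratio alone. For example, XTR7 at -0.53 had 0.00269 and FHL at -0.52 had 0.00330. These p-values did not reflect a gene's own spread over the arrays. Passes and losses with median centring are therefore not comparable with those of the other fits. With an array left out 0 to 3 of the 10 genes rose and 1 to 4 fell. Where an array was left out fewer samples carried the fit, and without array 1 or array 2 the spread came from arrays 3 and 4 alone; the cause of the other changes was not tested.

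Over all genes the rises numbered 4188 without background correction, 4047 with background-subtracted signals, 5046 from processed signals, 7894 in the value table and 225 to 3233 with an array left out. The falls numbered 4919, 4486 and 3923 in the first 3 of these and 425 to 3877 with an array left out. The value table gave 3063 falls and median centring 3031 rises and 1769 falls, so the split of calls moved. In the light signalling lists the value table gave 35 rises among 89 tested genes, where 7894 of all 19456 genes rose. The falls in these lists were 21, 19 and 18 without background correction, with background-subtracted signals and with processed signals. Leaving out an array gave 4 to 21 rises and 1 to 20 falls in them. The value table moved the median of all genes up by 0.14, and median centring moved it up by 0.095. The reported fit is paired, since each ratio sets both genotypes of 1 replicate against each other on the same array, so a further block for the replicate was not fitted. Signal over background limits PIL1. The ratios of FHL and IAA29 also turned on the handling of background. FHL went from -0.52 in the reported fit to -1.64 with background-subtracted signals. IAA29 went from 1.06 in the reported fit to 2.98 in the value table.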
